A study of Mus musculus with 6 samples.

Results

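WNT signalling genes were examined in primary mouse cardiac fibroblasts that were or were not exposed to TGFβ, the cytokine that drives fibroblasts into contractile, matrix-secreting myofibroblasts. They were taken from the table by symbol alone: the *Wnt* ligands, the Frizzled receptors (*Fzd*), the co-receptors *Lrp5* and *Lrp6*, *Ror1* and *Ror2*, the secreted antagonists of the *Sfrp*, *Frzb*, *Dkk* and *Wif1* families, the R-spondins (*Rspo*), their *Lgr* receptors, the ubiquitin ligases *Znrf3* and *Rnf43*, and *Axin2*. This gave 48 of the 25140 genes in the table, and 33 of the 48 had enough reads to be tested. RNA-seq was performed on 3 vehicle libraries and 3 libraries from cells given 10 ng/ml TGFβ for 24 h. All cells were C57BL/6 cardiac fibroblasts at passage 1, obtained from adult ventricles and held in 1% FBS before and during treatment. The low-serum period before treatment was 16 h by the sample labels and 24 h by the study's methods. The study's results text calls the cells embryonic fibroblasts, whereas its methods and the labels name cardiac fibroblasts. The libraries of a group are called biological replicates, but whether they came from separate animals, and how many animals were pooled, is not given in the sources used here, so the p-values below measure the spread between these libraries.

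WNTs are secreted, lipid-modified ligands that bind Frizzled receptors. Together with LRP5 or LRP6 they protect β-catenin from degradation, and β-catenin then joins TCF/LEF factors on target genes. Through ROR1 and ROR2 they also signal without β-catenin, to the cytoskeleton and cell polarity. SFRPs and WIF1 trap the ligands outside the cell, and DKK1 blocks the LRP co-receptors. R-spondins bind LGR receptors and thereby remove ZNRF3 and RNF43, the ligases that clear Frizzleds from the cell surface. WNT signalling is low in the healthy adult heart and is known to be re-engaged in injury and scar formation.

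The libraries held 27851677 to 31072338 counts on genes, and the 48 WNT genes took 0.361% to 0.398% of the counts with vehicle and 0.277% to 0.293% with TGFβ. *Sfrp1* held the most of these, with 181596 counts over the vehicle libraries and 110903 over the TGFβ libraries. The share is therefore weighted towards *Sfrp1* and does not describe each gene. The labelled cell type was checked first. *Tcf21*, *Tbx20* and *Gata4*, transcription factors of cardiac fibroblasts, stood at 89.4 to 648 CPM (counts scaled to the size of the library) in each library. *Myh6*, *Ryr2* and *Ttn* of cardiomyocytes were at 0.536 CPM or less, while *Tnnt2* was at 26.6 to 58.3 CPM. Of the 5 endothelial and 5 leukocyte markers, 0 passed the test, where 40.7% of all genes tested passed. Their summed levels were 348 to 596 CPM and 37.1 to 54.1 CPM. Among the endothelial markers *Tek* had a higher mean with TGFβ (97.8 CPM against 82.3 CPM), and the means of the others were lower. All 4 myofibroblast markers rose, *Acta2* and *Postn* among them, and 6 of 9 cardiac fibroblast markers fell, among them *Tcf21*, which was at 300 to 307 CPM under vehicle and 145 to 149 CPM under TGFβ. Of 5 smooth muscle and pericyte markers 1 rose (*Cspg4*), with summed levels of 55.7 to 79.2 CPM under vehicle and 71.8 to 116 CPM under TGFβ. Of all genes tested, 20.5% rose and 20.1% fell. The columns carry a group name but no replicate number. Library values are therefore given in 1 fixed order, the vehicle libraries of 31072338, 29296570 and 29331999 counts and then the TGFβ libraries of 27851677, 28894151 and 28641986 counts.

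With TGFβ, 5 ligands, both ROR receptors and both tested LGR receptors rose, while 5 Frizzleds, *Lrp5*, *Sfrp1*, *Sfrp2* and *Axin2* fell. *Fzd2*, *Fzd6* and *Dkk2* also rose. Of the 33 tested, 12 rose and 9 fell (21 genes, 63.6%), where 40.7% of all 14334 genes tested passed the same threshold, an edgeR adjusted p under 0.05. The 12 that rose were 36.4% of those tested, against 20.5% of all genes, and the 9 that fell were 27.3%, against 20.1% of all genes. Their median log2 fold change was -0.17, against -0.0013 over all genes. In 24 of the 33 (72.7%) the TGFβ libraries did not overlap the vehicle libraries, which was so for 53.3% of all genes tested. The 12 that rose include *Wnt10b* and *Wnt2*, which reached the filter level on low counts (0.344 CPM) in 0 vehicle libraries and 3 TGFβ libraries, so that they could be tested only because they were high with TGFβ. *Fzd9*, which did not pass the test, also reached it in 0 vehicle libraries and 3 TGFβ libraries, and *Dkk2* reached it in 2 of 3 vehicle libraries. *Wnt10b*, *Wnt2* and *Fzd9* are also among the 24 genes whose groups did not overlap. They could be counted there only because they were high with TGFβ, which raises that share. In RNA from a whole culture, fewer cells of a type and less RNA per cell cannot be told apart here.

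**Figure D1:**
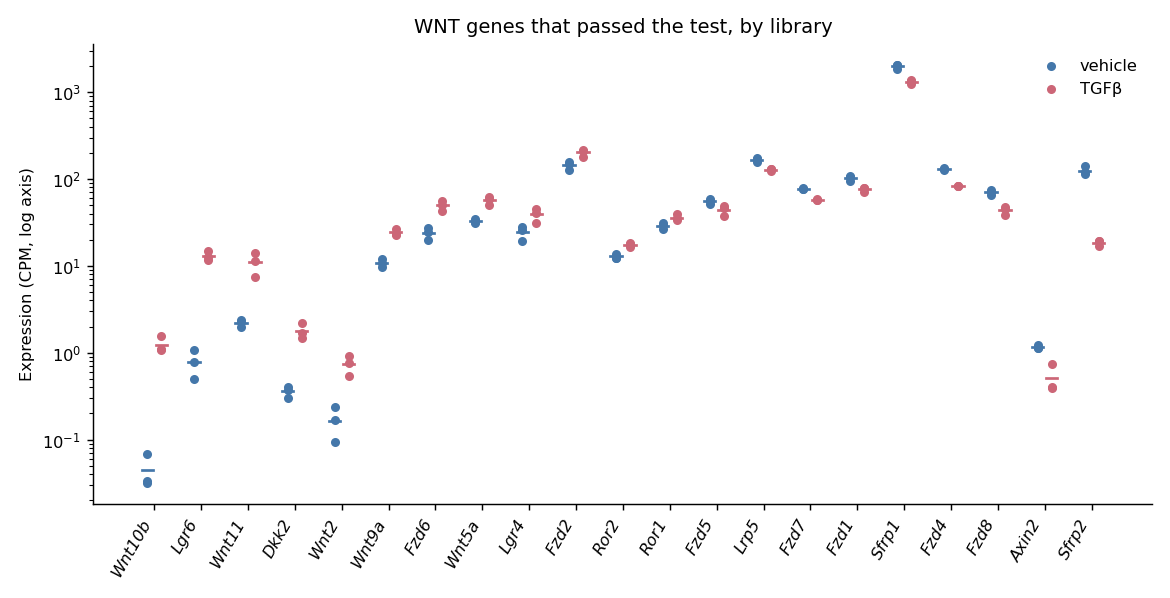
Expression in CPM (log axis) of the 21 WNT genes that passed the test, ordered from the largest rise to the largest fall, with a point per library and a bar at the mean of 3 vehicle (blue) and 3 TGFβ (red) libraries. In each of the 21 genes the groups do not overlap.

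The promoters of the 3 genes with the largest rises and the 2 with the largest falls, among the called genes with a promoter given, are shown for reference, each as the 250 bases before the transcription start from RefSeq (GRCm38.p6, also known as mm10, the build of the study). They belong to *Wnt10b* (chr15:98778151-98778400, minus strand), *Lgr6* (chr1:135105277-135105526, minus strand), *Wnt11* (chr7:98834862-98835111, plus strand), *Sfrp2* (chr3:83766071-83766320, plus strand) and *Axin2* (chr11:108920099-108920348, plus strand). All 5 are protein-coding genes, and each window lies directly upstream of the first annotated base of its gene. Capitals mark matches, on either strand, to the TCF/LEF core (CTTTGAA or CTTTGAT with the forms CTTTGTA or CTTTGTT), the CAGA box bound by SMADs (CAGACA), the palindromic SMAD element (GTCTAGAC) and the AP-1 site (TGACTCA).
Wnt10b: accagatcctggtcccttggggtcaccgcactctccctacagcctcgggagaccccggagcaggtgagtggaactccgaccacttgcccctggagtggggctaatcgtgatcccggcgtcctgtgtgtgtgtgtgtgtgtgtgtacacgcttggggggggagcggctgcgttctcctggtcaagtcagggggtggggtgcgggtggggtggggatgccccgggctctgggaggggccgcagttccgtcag
Lgr6: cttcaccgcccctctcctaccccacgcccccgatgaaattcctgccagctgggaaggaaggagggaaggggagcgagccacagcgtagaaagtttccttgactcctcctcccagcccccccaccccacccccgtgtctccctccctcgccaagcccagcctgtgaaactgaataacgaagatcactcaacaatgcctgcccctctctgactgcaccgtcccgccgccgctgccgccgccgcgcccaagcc
Wnt11: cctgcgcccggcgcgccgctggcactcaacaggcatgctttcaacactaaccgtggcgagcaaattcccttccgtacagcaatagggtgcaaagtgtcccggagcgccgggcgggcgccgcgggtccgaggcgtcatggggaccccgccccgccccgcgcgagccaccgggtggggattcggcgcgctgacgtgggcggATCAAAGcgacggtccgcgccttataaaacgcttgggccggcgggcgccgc
Sfrp2: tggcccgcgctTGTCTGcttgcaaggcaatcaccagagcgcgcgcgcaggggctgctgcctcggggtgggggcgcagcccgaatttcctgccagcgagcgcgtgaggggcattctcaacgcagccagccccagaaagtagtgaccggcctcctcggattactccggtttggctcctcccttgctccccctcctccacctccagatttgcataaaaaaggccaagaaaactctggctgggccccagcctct
Axin2: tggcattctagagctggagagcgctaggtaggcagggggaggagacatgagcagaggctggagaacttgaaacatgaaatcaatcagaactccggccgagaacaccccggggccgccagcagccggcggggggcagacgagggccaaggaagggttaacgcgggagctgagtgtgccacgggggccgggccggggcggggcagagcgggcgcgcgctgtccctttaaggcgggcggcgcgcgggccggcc

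Promoters were given for 31 of the 48 WNT genes, 15 of them among the 21 that passed the test. A TCF/LEF core lay in 1 of 9 promoters of genes that rose (*Wnt11*) and in 1 of 6 of genes that fell (*Fzd7*), and 14.8% of all 32851 promoters hold one. A CAGA box lay in 0 of 9 and 1 of 6 (*Sfrp2*), and 17.1% of all promoters hold one. The AP-1 site was found in *Ror2* alone among these 15 (4.46% of all promoters), and the palindromic SMAD element in 0 of them (0.167% of all promoters). The 5 windows shown were rich in G and C, at 63.6% (*Sfrp2*) to 70.8% (*Wnt11*), with a median of 52.4% over all promoters. *Wnt11* also held the most CpG pairs of the 5, 37 against a median of 6. A match of letters is not a bound site, and a window without one says nothing of sites elsewhere.

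Of the 16 *Wnt* ligands in the table, 8 had enough reads to be tested, and 5 of these rose with TGFβ while 0 fell, where 20.5% of all genes tested rose and 20.1% fell. *Wnt2* and *Wnt10b* among the 5 could be tested only through their TGFβ libraries. *Wnt5a* and *Wnt9a* were the most abundant ligands per transcript length in either group. *Wnt5a*, the classic ligand of β-catenin-independent signalling and a partner of ROR2, was read at 34.3, 31.3 and 32.0 CPM under vehicle and 59.3, 49.9 and 61.5 CPM under TGFβ. All TGFβ values lay above all vehicle values, a log2 fold change of 0.81 (standard error, SE, 0.08, edgeR adjusted p = 0.000238). *Wnt9a*, a ligand known from joint and heart valve development, was read at 12.0, 10.7 and 9.79 CPM under vehicle and 26.6, 22.9 and 23.5 CPM under TGFβ. Its log2 fold change was 1.17 (SE 0.09, edgeR adjusted p = 7.46e-05), so that it rose 2.24-fold. *Wnt11*, which acts mostly without β-catenin and takes part in heart formation, was read at 2.39, 1.96 and 2.25 CPM under vehicle and 11.3, 7.38 and 14.2 CPM under TGFβ. The TGFβ libraries spread widely, yet the lowest of them stood over 3 times the highest vehicle value, and the log2 fold change was 2.32 (SE 0.25, edgeR adjusted p = 0.000305). Of the windows of 75 bases in its longest transcript, 8.59% also occur in transcripts of other genes, on either strand. *Gm8398*, which lies across *Wnt11* on the opposite strand, had 0 reads in all against 1122 on *Wnt11*.

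The remaining risers were scarce. *Wnt10b*, a β-catenin-activating ligand known for blocking fat cell formation, was covered by 1, 2 and 1 reads with vehicle and 30, 30 and 44 reads with TGFβ. Its log2 fold change of 4.69 (SE 0.38, edgeR adjusted p = 8.73e-05) rests on 4 vehicle reads, and the ratio of the summed reads, 28.3, had an exact 95% binomial interval of 10.7 to 106 that covers counting error only. *Wnt2*, which acts in lung and heart progenitors, was covered by 3, 5 and 7 reads with vehicle and 25, 15 and 22 reads with TGFβ, a log2 fold change of 2.14 (SE 0.38, edgeR adjusted p = 0.0031). *Wnt1*, which lies 11707 bases from *Wnt10b* on chromosome 15 and is transcribed away from it, had 0 reads in every vehicle library and 5, 5 and 16 with TGFβ. It was below the filter and was not tested. Set against a floor of 3 reads for the vehicle group, it was 9.44-fold higher. That value is not a lower bound, since the exact 95% binomial interval of the ratio, for counting error only, began at 7.15. With no filter on low counts it passed the test (edgeR adjusted p = 0.004). These 3 ligands together made up a small part of the ligand transcripts, with 1.27 TPM (a level per transcript length) of *Wnt2*, 1.41 TPM of *Wnt10b* and 0.503 TPM of *Wnt1* with TGFβ.

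For *Wnt4*, *Wnt5b* and *Wnt16* the test was not passed. *Wnt5b*, a close relative of *Wnt5a*, was at 2.02 ± 0.41 CPM under vehicle and 1.46 ± 0.36 CPM under TGFβ (SD, n = 3 each), with a log2 fold change of -0.47 (SE 0.23). *Fbxl14* lies across it on the opposite strand with 4384 reads in all against 307 on *Wnt5b*, and whether strand was used in counting is not given in the sources used here. *Wnt16* was at 1.06 ± 0.31 CPM and 0.679 ± 0.153 CPM (SD, n = 3 each). Of the other ligands below the filter, *Wnt2b* had 42 reads over the vehicle group and 26 over the TGFβ group and *Wnt6* had 10 and 5. *Wnt7a* had 7 reads with vehicle and 0 with TGFβ, and the exact 95% binomial interval of the ratio of TGFβ to vehicle, for counting error only, reached up to 0.756. With no filter on low counts *Wnt7a* did not pass the test (edgeR adjusted p = 0.0666). *Wnt3*, *Wnt7b*, *Wnt8a* and *Wnt10a* had at most 4 reads in a group.

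**Figure D2:**
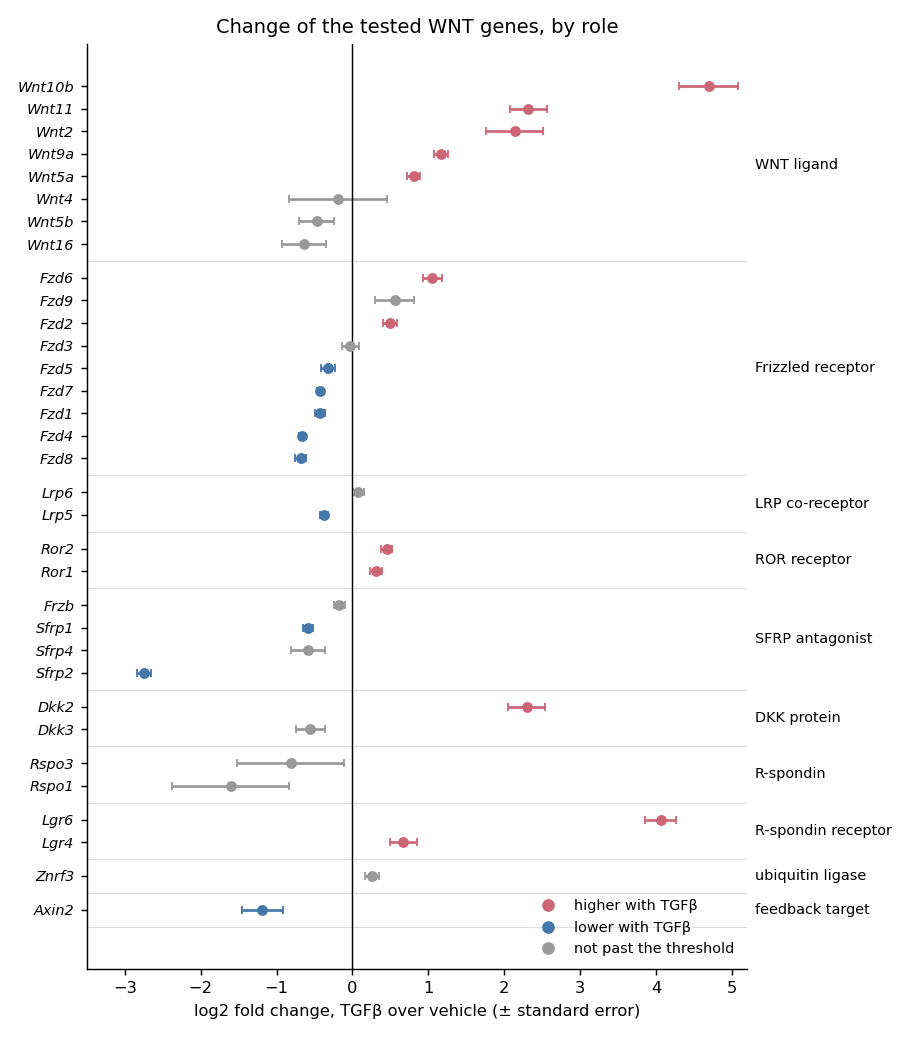
log2 fold change of TGFβ over vehicle (± SE, edgeR) for the 33 WNT genes tested, grouped by role. Red genes rose, blue genes fell and grey genes did not pass the threshold; the values run from -2.75 for *Sfrp2* to 4.69 for *Wnt10b*.

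The Frizzled receptors, which bind the ligands directly, moved in opposite directions. Of the 10 in the table, 9 were tested, *Fzd6* and *Fzd2* rose, and *Fzd1*, *Fzd4*, *Fzd5*, *Fzd7* and *Fzd8* fell. Of all genes tested 20.5% rose and 20.1% fell, so the share of Frizzleds that rose was near that of all genes. *Fzd6*, a receptor of the planar polarity route, was read at 27.1, 19.9 and 24.9 CPM under vehicle and 55.8, 43.3 and 49.9 CPM under TGFβ, and rose 2.07-fold (log2 fold change 1.05, SE 0.13, edgeR adjusted p = 0.000538). *Fzd2*, the most abundant Frizzled here and a WNT5A receptor, was read at 156, 147 and 127 CPM under vehicle and 211, 215 and 181 CPM under TGFβ (log2 fold change 0.49, SE 0.09, edgeR adjusted p = 0.00374). In both genes the lowest TGFβ library lay above the highest vehicle library. *Fzd4*, which also serves as the receptor of Norrin in blood vessels, was read at 131, 136 and 127 CPM under vehicle and 83.6, 82.3 and 82.6 CPM under TGFβ. Its log2 fold change was -0.67 with the smallest adjusted p of the Frizzleds (SE 0.04, edgeR adjusted p = 2.02e-05). Beside it, the summed level of the 5 endothelial markers was 385 to 596 CPM under vehicle and 348 to 477 CPM under TGFβ, whose part in the fall was not tested. *Fzd8* was read at 73.8, 71.5 and 66.1 CPM under vehicle and 45.0, 47.5 and 39.0 CPM under TGFβ (log2 fold change -0.68, SE 0.08, edgeR adjusted p = 0.000382). *Fzd1* and *Fzd7*, close relatives of *Fzd2*, fell by 0.43 each on the log2 scale, with groups apart (edgeR adjusted p = 0.00149 and 0.000104). The fall of *Fzd5*, by 0.32, had an adjusted p of 0.0315 from edgeR and did not hold without the vehicle library of 31072338 counts (0.0756), without that of 29296570 counts (0.0982) or without the TGFβ library of 27851677 counts (0.0505), with a range of 0.0119 to 0.0982 over 12 alternatives. Of the windows in *Fzd5*, 15.9% also occur in other genes, on either strand. *Gm38058*, which lies across it on the opposite strand, had 15 reads in all against 8759 on *Fzd5*. *Fzd3* and *Fzd9* did not pass the test, at 8.44 and 8.29 CPM and at 0.307 and 0.453 CPM (means with vehicle and TGFβ), and *Fzd10* had 7 reads in each group.

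Counted per transcript length, the Frizzleds summed to 511 ± 24.0 TPM with vehicle and 477 ± 25.4 TPM with TGFβ (SD, n = 3 each), values whose spreads overlap. Within that sum the share of *Fzd2* was 28.7% to 32.4% in the vehicle libraries and 42.5% to 46.7% in the TGFβ libraries, and that of *Fzd6* 3.29% to 4.26% and 7.16% to 9.02%. With vehicle the order of levels was *Fzd2* (159 ± 17.2 TPM), *Fzd1* (99.97 ± 6.16), *Fzd4* (79.3 ± 3.0), *Fzd7* (69.1 ± 1.7), *Fzd8* (47.8 ± 3.0), *Fzd5* (32.4 ± 2.1), *Fzd6* (20.1 ± 3.1) and *Fzd3* (2.67 ± 0.23), with neighbours further apart than their SDs and with *Fzd9* and *Fzd10* under 1 TPM. With TGFβ *Fzd2* stood at 213 ± 17.1 TPM and *Fzd1* at 70.9 ± 6.1 TPM. *Fzd7* (49.0 ± 0.8 TPM) and *Fzd4* (47.6 ± 1.6 TPM) then had overlapping ranges of mean ± SD. So did *Fzd8* (28.3 ± 2.4 TPM) and *Fzd5* (24.7 ± 3.1 TPM). In each of the 3 TGFβ libraries, however, *Fzd7* was above *Fzd4* and *Fzd8* above *Fzd5*. *Fzd6* (39.9 ± 6.0 TPM) had moved above both *Fzd8* and *Fzd5*.

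**Figure D3:**
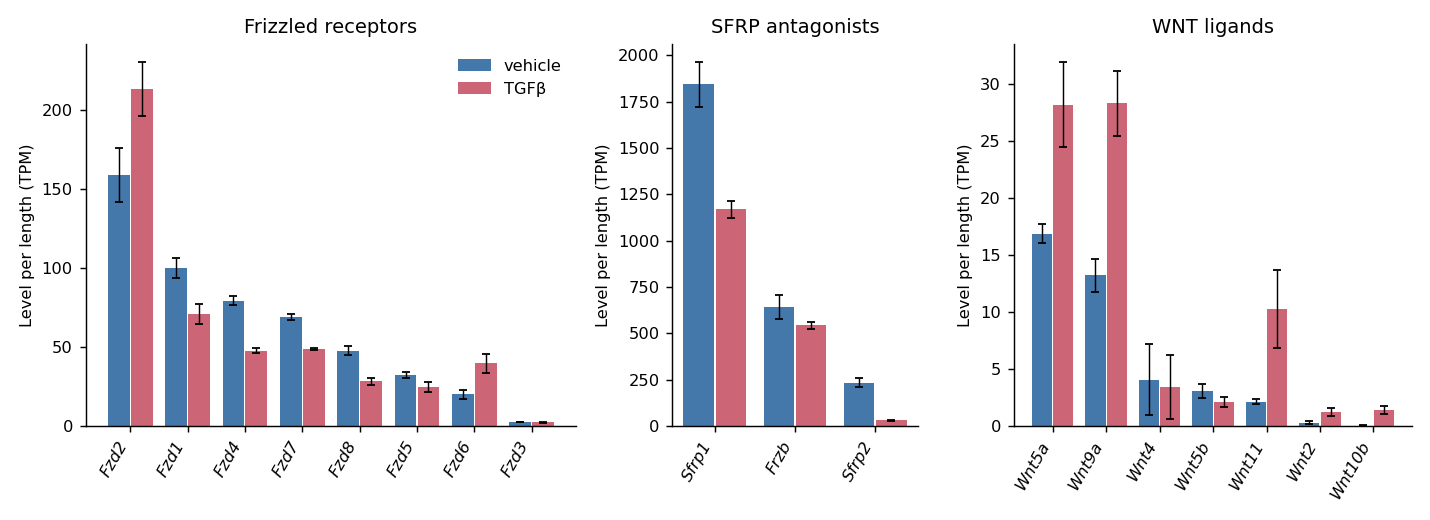
Levels per transcript length in TPM (bars from 0, mean; whiskers, SD; n = 3 vehicle libraries in blue and 3 TGFβ libraries in red) of Frizzleds, SFRPs and ligands with at least 1 TPM in a group. *Fzd2* and *Fzd6* were higher and the other called Frizzleds lower with TGFβ, *Sfrp2* fell from 234 to 33.2 TPM, and *Wnt5a*, *Wnt9a* and *Wnt11* led the ligands with TGFβ.

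Among the co-receptors, *Lrp5* fell and *Lrp6* did not pass the test. *Lrp5*, known for its role in bone mass, was read at 169.7, 175 and 156 CPM under vehicle and 131, 130.3 and 124 CPM under TGFβ (log2 fold change -0.38, SE 0.05, edgeR adjusted p = 0.00111). *Lrp6* was at 163 ± 2.9 CPM and 172 ± 16.5 CPM (SD, n = 3 each; log2 fold change 0.08, SE 0.07). The spread of *Lrp6* was set by 1 TGFβ library, that of 28641986 counts, at 153 CPM against 183 and 179 CPM in the others. Without it the edgeR adjusted p of *Lrp6* was 0.0291, from 0.41 with all libraries (range over 12 alternatives 0.0291 to 0.803). Both ROR receptors, tyrosine kinases of the β-catenin-independent route, rose. *Ryk*, *Ptk7* and *Musk*, listed with the other receptors of the pathway, did not pass the test (edgeR adjusted p = 0.095, 0.779 and 0.167). *Ror2* was read at 12.4, 12.4 and 13.7 CPM under vehicle and 18.4, 16.5 and 17.9 CPM under TGFβ (log2 fold change 0.45, SE 0.07, edgeR adjusted p = 0.00196). *Ror1* was read at 31.3, 26.7 and 29.2 CPM under vehicle and 39.2, 33.3 and 35.3 CPM under TGFβ (log2 fold change 0.31, SE 0.08, edgeR adjusted p = 0.0167). The call on *Ror1* did not hold without the vehicle library of 29296570 counts (edgeR adjusted p = 0.0551) or the TGFβ library of 27851677 counts (0.0583), with a range of 0.00778 to 0.0583 over 12 alternatives.

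Summed as a family, the secreted antagonists of the SFRP type were by far the most abundant of these transcripts, a sum carried mainly by *Sfrp1* and *Frzb*. SFRPs carry a Frizzled-like domain with which they hold WNTs outside the cell. *Sfrp2* gave the largest fall of the 33 WNT genes tested, from 139.5, 114 and 120.4 CPM under vehicle to 19.5, 19.3 and 16.7 CPM under TGFβ. The vehicle values stood 6.72-fold above those with TGFβ (log2 fold change -2.75, SE 0.09, edgeR adjusted p = 3.88e-06), and 12 alternatives put the log2 fold change at -2.81 to -2.66. Windows shared with other genes made up 10.5% of *Sfrp2*, whose antisense partner *Gm26771* had 18 reads in all against 12956. *Sfrp1*, the leading member, fell from 2049, 2059.8 and 1854 CPM to 1337, 1389 and 1247 CPM (log2 fold change -0.59, SE 0.07, edgeR adjusted p = 0.000371). *Frzb*, also called SFRP3 and first found in cartilage, was at 513 ± 47.7 CPM and 455.7 ± 24.1 CPM (SD, n = 3 each) and did not pass the test. Its adjusted p of 0.106 from edgeR became 0.0191 without the vehicle library of 29331999 counts, its lowest vehicle library (range over 12 alternatives 0.0191 to 0.311). *Sfrp4*, known for its part in bone, was scarce, with 25 to 26 reads per vehicle library and 13 to 20 per TGFβ library. It did not pass the test (edgeR adjusted p = 0.0743), except without the TGFβ library of 28641986 counts (0.0437, range over 11 alternatives 0.0437 to 0.311).

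Per length, the SFRP family summed to 2721 ± 189.9 TPM with vehicle and 1746 ± 65.6 TPM with TGFβ (SD, n = 3 each), 35.8% less in the mean. The WNT ligands together summed to 41.6 ± 6.3 TPM and 76.6 ± 11.2 TPM. SFRP transcripts thus outnumbered ligand transcripts 57.9 to 74.1 times in the vehicle libraries and 20.6 to 27.9 times in the TGFβ libraries, ranges that do not overlap. *Sfrp1* kept a like share of the SFRP sum, 67.2% to 68.2% with vehicle and 66.8% to 67.3% with TGFβ. The share of *Frzb* was 22.8% to 24.5% and then 30.7% to 31.4%, and that of *Sfrp2* was 7.61% to 9.30% and then 1.82% to 1.99%. These sums describe RNA and not the amounts of protein outside the cell.

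Of the other antagonists, *Dkk2* rose and *Dkk3* did not pass the test. *Dkk2*, which can block or weakly activate LRP6 depending on its partners, was covered by 13, 9 and 11 reads with vehicle and 40, 47 and 63 reads with TGFβ (log2 fold change 2.29, SE 0.25, edgeR adjusted p = 0.000343). It remained scarce, at 1.86 TPM with TGFβ beside 40.9 TPM of *Dkk3*. *Dkk3*, a divergent family member that does not bind LRPs like DKK1, was read at 42.6, 50.6 and 63.0 CPM under vehicle and 31.2, 29.1 and 46.1 CPM under TGFβ. The highest TGFβ library lay above the lowest vehicle library, and the log2 fold change was -0.55 (SE 0.20, edgeR adjusted p = 0.055). *Dkk3* passed the threshold under 5 of 12 alternatives, among them DESeq2 (adjusted p = 0.00838) and edgeR without the TGFβ library of 28641986 counts (0.00753), with a range of 0.00753 to 0.171. *Dkk1*, the best known LRP blocker, had 1 read in each group, and *Wif1* had 6 and 2.

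Both tested receptors of R-spondins rose. *Lgr6*, known as a stem cell marker of skin and other epithelia, was covered by 16, 23 and 32 reads with vehicle and 322, 356 and 418 reads with TGFβ. That is 0.784 ± 0.285 CPM and 13.1 ± 1.5 CPM (SD, n = 3 each), a 16.7-fold rise (log2 fold change 4.06, SE 0.21, edgeR adjusted p = 1.11e-05). With any 1 library left out it ranged from 3.81 to 4.35 on the log2 scale. The related *Lgr4* is the widely expressed member. It was read at 26.1, 28.2 and 19.2 CPM under vehicle and 40.9, 45.4 and 30.9 CPM under TGFβ (log2 fold change 0.67, SE 0.17, edgeR adjusted p = 0.0164). The call on *Lgr4* was lost without the TGFβ library of 27851677 counts (edgeR adjusted p = 0.0563) or that of 28894151 counts (0.0553), with a range of 0.000374 to 0.0563 over 12 alternatives. *Lgr6* thus grew from 0.463 ± 0.166 TPM to 7.37 ± 0.88 TPM and *Lgr4* from 16.9 ± 3.3 TPM to 25.6 ± 4.5 TPM (SD, n = 3 each), so that *Lgr4* remained the more abundant. *Lgr5*, the intestinal stem cell marker, had 2 and 4 reads per group.

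Of their ligands, *Rspo1* and *Rspo3* varied widely between libraries of a group. *Rspo1* was read at 6.69, 1.01 and 2.98 CPM under vehicle and 2.30, 0.287 and 0.947 CPM under TGFβ, and *Rspo3* at 9.36, 3.17 and 17.1 CPM and 6.87, 1.11 and 8.80 CPM. Neither passed the test (log2 fold changes -1.61 and -0.82, SEs 0.77 and 0.70). When single libraries were omitted, the estimate ran from -2.52 to -0.77 for *Rspo1* and from -1.32 to -0.17 for *Rspo3*. *Rspo1* passed the test in 1 of 12 alternatives, without the vehicle library of 29296570 counts (edgeR adjusted p = 0.04996, range 0.04996 to 0.461). *Wnt4*, a ligand of kidney and gonad development, had a like spread, at 7.89, 1.92 and 2.82 CPM under vehicle and 7.13, 1.68 and 2.35 CPM under TGFβ (log2 fold change -0.19, SE 0.65). All 3 genes were lowest in the vehicle library of 29296570 counts and in the TGFβ library of 28894151 counts. So was the mesothelial transcription factor *Wt1*, at 6.76, 0.978 and 2.78 CPM and 7.27, 1.54 and 2.49 CPM, and so was *Upk3b*, at 53.4, 20.9 and 22.9 CPM and 24.6, 11.7 and 12.5 CPM. *Rspo3* was highest in the libraries of 29331999 and 28641986 counts, and the others in those of 31072338 and 27851677 counts. The summed smooth muscle and pericyte markers had the order of *Rspo3*, at 58.8, 55.7 and 79.2 CPM under vehicle and 98.4, 71.8 and 116 CPM under TGFβ. Of the 4 mesothelial and epicardial markers 0 passed the test, where 40.7% of all genes tested passed. Their summed level was 23.0 to 62.2 CPM under vehicle and 14.8 to 34.2 CPM under TGFβ. *Upk3b* made up most of that sum, with means of 32.4 CPM under vehicle and 16.3 CPM under TGFβ. The means of *Wt1* (3.51 and 3.77 CPM), *Msln* (0.632 and 0.969 CPM) and *Krt19* (0.956 and 0.967 CPM) were not lower with TGFβ. The part of mesothelial cells, smooth muscle cells or pericytes in these values was not tested. *Rspo2* was below the filter, with 14, 5 and 15 reads with vehicle and 3, 1 and 1 with TGFβ, a ratio of summed reads of 0.16 (exact 95% binomial interval 0.0489 to 0.412, counting error only). All its TGFβ values lay below all its vehicle values. In the 6 alternatives that tested it, it passed in 5, among them DESeq2 (adjusted p = 0.0243) and edgeR with no filter (0.0104), with a range of 0.00639 to 0.0533. *Rspo2* reached the filter level in 2 vehicle libraries and 0 TGFβ libraries. The alternatives with a library left out could thus test it only because it was high with vehicle. *Rspo4* had 1 and 0 reads.

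**Figure D4:**
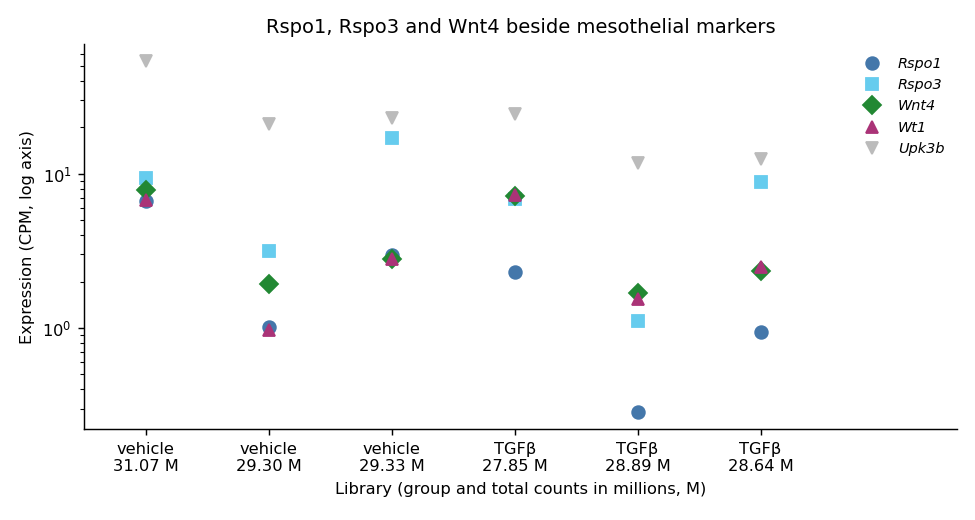
Expression in CPM (log axis) of *Rspo1*, *Rspo3* and *Wnt4* beside the mesothelial markers *Wt1* and *Upk3b* in each of the 6 libraries, named by group and total count. All 5 genes are lowest, within each group, in the libraries of 29296570 and 28894151 counts. *Rspo3* is highest in those of 29331999 and 28641986 counts, and the others in those of 31072338 and 27851677 counts.

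*Znrf3*, a ligase that clears Frizzleds, was read at 8.77, 7.99 and 7.17 CPM under vehicle and 9.65, 9.24 and 9.72 CPM under TGFβ. The groups did not overlap, but the adjusted p of 0.0565 from edgeR missed the threshold (log2 fold change 0.26, SE 0.09). Without the vehicle library of 31072338 counts it was 0.0324 (range over 12 alternatives 0.0324 to 0.146). Its partner *Rnf43* had 21 and 17 reads per group. *Axin2*, a scaffold of the β-catenin destruction complex and a widely used readout of β-catenin signalling, fell. It was covered by 36, 34 and 37 reads with vehicle and 11, 11 and 21 reads with TGFβ, and each TGFβ library lay below each vehicle library. The log2 fold change was -1.19 (SE 0.27, edgeR adjusted p = 0.00978) and ranged from -1.56 to -1.03 over 12 alternatives. At 0.863 ± 0.038 TPM with vehicle and 0.359 ± 0.142 TPM with TGFβ (SD, n = 3 each) its transcript was scarce in both groups. For every single gene compared above whose groups did not overlap, the two-sided exact permutation test gave p = 0.1, the smallest that 3 libraries against 3 allow.

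The other genes of the pathway were read from a list of 71, of which 62 were tested. With TGFβ 13 rose and 22 fell (35 genes, 56.5%, where 40.7% of all genes passed), with a median log2 fold change of -0.04. The 13 that rose were 21.0% of those tested, against 20.5% of all genes. The 22 that fell were 35.5%, against 20.1% of all genes. Of the 8 tested genes for secretion and extracellular control 4 rose and 3 fell. *Wls*, the carrier that takes WNTs to the cell surface, rose from 477 ± 34.9 to 663 ± 40.5 CPM (SD, n = 3 each; log2 fold change 0.48, edgeR adjusted p = 0.0013). *Porcn*, the enzyme that adds their lipid, fell from 4.30 ± 0.20 to 3.17 ± 0.46 CPM (SD, n = 3 each; edgeR adjusted p = 0.0349). *Cthrc1*, a secreted protein that stabilises WNT binding to Frizzled and ROR2, rose from 74.1 ± 11.5 to 269 ± 10.5 CPM (log2 fold change 1.86, edgeR adjusted p = 1.79e-05). *Igfbp4*, an IGF-binding protein that also inhibits WNT receptors, fell from 826 ± 81.9 to 134 ± 26.4 CPM (log2 fold change -2.63, edgeR adjusted p = 1.82e-05). *Notum*, which strips the lipid, had 6 and 0 reads. Of the 13 tested receptors and polarity genes 0 rose and 6 fell, among them *Reck* and *Adgra2*, which together present WNT7 ligands, and *Prickle1* and *Prickle2*.

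Of the 20 cytoplasmic components 7 rose and 4 fell, mostly by small amounts, where 20.5% of all genes rose and 20.1% fell. The share of these components that fell was thus near that of all genes. *Ctnnb1*, β-catenin itself, rose from 709 ± 7.7 to 779 ± 20.1 CPM (SD, n = 3 each; log2 fold change 0.14, edgeR adjusted p = 0.0374). The feedback inhibitors *Nkd1* and *Nkd2* parted, with *Nkd1* falling from 13.8 ± 1.9 to 7.34 ± 1.30 CPM (edgeR adjusted p = 0.00243) and *Nkd2* rising from 72.3 ± 4.1 to 113 ± 7.7 CPM (SD, n = 3 each; edgeR adjusted p = 0.000205). Of the 13 tested nuclear components 1 rose (*Tle1*) and 8 fell. Among the DNA-binding partners of β-catenin, *Tcf7l1* fell from 48.2 ± 2.0 to 32.4 ± 1.0 CPM and *Tcf7l2* from 20.1 ± 1.3 to 16.5 ± 0.5 CPM (SD, n = 3 each). *Tcf7*, at 0.684 and 0.942 CPM, did not pass the test. *Lef1* was below the filter and not tested, with 10 reads over the vehicle group and 37 over the TGFβ group. Its libraries held 3, 3 and 4 reads with vehicle and 11, 8 and 18 with TGFβ, and the groups did not overlap. The co-repressor *Tle2* fell from 8.58 ± 0.61 to 3.75 ± 0.21 CPM (edgeR adjusted p = 9.31e-05).

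Of the 8 tested genes on the list of β-catenin targets 1 rose and 1 fell, where 40.7% of all genes passed. These 8 genes are too few for their share to be read as a result. *Axin2* and *Nkd1*, which fell, were counted in other groups above. *Ccn4*, a secreted matrix protein, rose by a log2 fold change of 2.34, and *Ccnd1*, cyclin D1 of the cell cycle, fell from 72.1 ± 9.5 to 31.5 ± 2.9 CPM (SD, n = 3 each; edgeR adjusted p = 0.000118). *Sp5*, a transcription factor often used as a WNT readout, was at 1.27 ± 0.47 CPM and 0.882 ± 0.190 CPM (SD, n = 3 each) and did not pass the test. All these genes are also regulated by other signals.

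**Figure D5:**
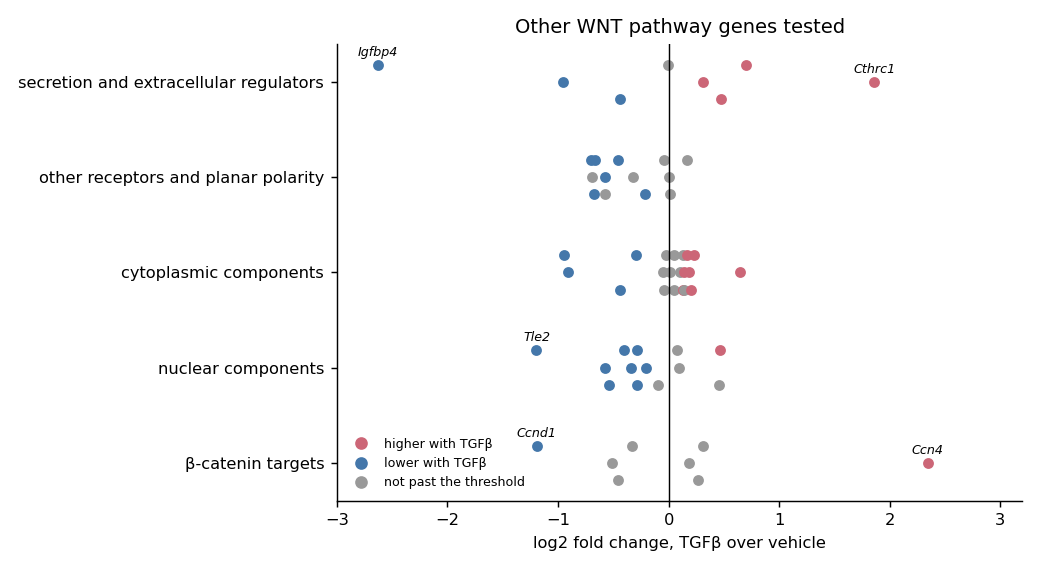
Response to TGFβ (log2 fold change against vehicle) of the 62 other WNT pathway genes tested, by sublist, with a point per gene (vertical offsets only separate points). Red genes rose (13), blue genes fell (22), grey genes did not pass the threshold, and genes that passed with a change of at least 1 in size are named, from *Igfbp4* at -2.63 to *Ccn4* at 2.34.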

How the data were processed

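Total RNA from primary cardiac fibroblasts was made into stranded poly(A) libraries and read as single ends of 75 bases. The authors aligned the reads to mm10 and used DESeq2. The raw count table they deposited, with 1 column per library, was the only measurement used. Their own means, fold changes and p-values in the same table were not used. The aligner, the counting tool, the annotation and the use of strand are not given in the sources used here. No per-library column was left out.

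Counts were scaled with TMM factors, filtered with filterByExpr on the group and compared across all 14334 genes kept with the quasi-likelihood test of edgeR 4.0.16 (R 4.3.3), Benjamini-Hochberg adjustment and a threshold of 0.05. The SE is the log2 fold change over the square root of F. The biological coefficient of variation was 7.97%. TPM used exon lengths from GENCODE M21 (GRCm38), which held 25086 of 25140 identifiers, and was not TMM-scaled. Replicates differed by more than counting noise (chi-square per gene 7.95 to 27.1). Binomial intervals, and floors of 3 counts over a group, cover counting error only.

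The genes and lists were chosen with earlier results of these data known. Values by library are given for called WNT genes whose log2 fold change was 0.5 or more in either direction and for the most abundant gene of each role. Others are given by group or reads. Of other pathway genes, those called with a change of at least 1 (log2) and a fixed set of core genes are named. Further names and values by library were chosen after their values were seen. Alternatives were RLE and upper quartile scaling, DESeq2 1.42.0, limma-voom (limma 3.58.1), other filters, stricter thresholds and each library left out. The steps were tested on simulated counts.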

Additional observations from a re-analysis of the deposited data

How the results depend on the processing

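The number of genes called was 5828, 3595 at an adjusted p of 0.01 and 971 when a change of at least 1 on the log2 scale was also asked for. At the latter limit 7 of the 33 tested WNT genes were higher and 2 lower, and of the 62 other pathway genes 2 were higher and 3 lower. Of all 14334 genes tested 346 were higher and 625 lower. The 7 include *Wnt2* and *Wnt10b*, which could be tested only through their TGFβ libraries. At an adjusted p of 0.01, 14 other pathway genes were lower rather than 22. All of these limits are stricter by construction. With the other tools, scalings and filters and with single libraries omitted, WNT genes called higher numbered 10 to 13 and lower 9 to 12. When single libraries were omitted, the estimate for *Wnt4* (log2) ran from -1.07 to 0.645 and for *Fzd3* from -0.135 to 0.0445, so that both changed sign, neither being called. No scaling, tool or filter turned the direction of a tested WNT gene. Calls were lost for *Lgr4*, *Ror1* and *Fzd5* with single libraries left out, and gained for *Dkk3*, *Frzb*, *Znrf3*, *Rspo1*, *Sfrp4* and *Lrp6* under at least 1 alternative. The filter of at least 1 CPM in 3 libraries left *Wnt2* untested, and its call held in the 11 alternatives that tested it. Of the 15 WNT genes under the filter, *Wnt1* was called higher with no filter, and *Rspo2* was called lower in 5 of the 6 alternatives that tested it. Those with a library left out could test *Rspo2* only through its vehicle libraries. The cause of these changes was not tested. With the length of the longest transcript in place of all exons, 28 rather than 29 WNT genes reached 1 TPM in a group. No paired analysis was possible because the columns of counts carry no replicate number, so the test treated the libraries as unpaired. Whether vehicle and TGFβ libraries shared a source of cells is not given in the sources used here. The filter left 15 WNT genes untested, and with it removed 13 of these were still not called.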
